A study of Mus musculus with 9 samples.

Results

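Mitochondria take up iron, build iron-sulfur clusters from it and complete heme, and 8 genes of these steps were followed through the atherosclerotic aorta of mice. The genes were chosen by name for their roles, with earlier results of these data known, and all 8 were found among the 54532 genes listed. They are the mitoferrins Slc25a37 and Slc25a28 (iron import), Nfs1, Iscu and Glrx5 (iron-sulfur clusters), and Alas1, Abcb10 and Fech (heme). The animals were Apoe-/- mice, which lack apolipoprotein E and develop atherosclerosis, and were 6 to 8 weeks old when their diets began. For 24 weeks they received high fat food together with ammonium iron(III) citrate injected into the peritoneum (HFD_IO), high fat food without the injections (HFD) or chow (CD), and 3 aortas of each group were sequenced. All 3 groups share the Apoe disruption, and no aorta with a working Apoe gene was analysed here. Libraries are named by their columns, for example HFD_IO_1. Nothing in the labels says that each aorta came from a separate animal, so p-values measure the spread between these samples.

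Iron enters the mitochondrial matrix through the mitoferrins, a pair of related carriers of the inner membrane. In the matrix, the enzyme NFS1 takes sulfur from cysteine, and the cluster forms on the scaffold ISCU. The glutaredoxin GLRX5 passes the cluster on to recipient proteins. Heme synthesis begins in the same compartment with ALAS1, the first and usually limiting enzyme outside red cell precursors, and ends there with FECH, which inserts iron into protoporphyrin and itself carries an iron-sulfur cluster. ABCB10, a transporter of the inner membrane, is needed for normal heme synthesis in mouse red cell precursors and binds mitoferrin 1 there.

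Levels are the deposited FPKM, that is, fragments for each kilobase of a gene, scaled by library. Whole reads could be read back from them, and the libraries held 16660963 to 18308450 reads. The 8 genes had between 317 reads (Abcb10) and 2950 reads (Iscu) in a library. All 8 passed the filter of at least 1 FPKM in at least 3 libraries, as did 13883 genes in all. Changes are log2 fold changes of FPKM + 1 from limma, with a standard error (SE), and the threshold was an adjusted p of 0.05 over all 13883 genes. Apoe transcripts were listed at 9.73 to 21.9 FPKM, a value over the whole gene that does not separate intact from disrupted transcripts.

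Because FPKM is per length, levels can be set beside each other between genes. That holds as far as the listed gene lengths fit the transcripts present, which was not tested. Alas1, listed at 6174 bases, had 938 to 2619 reads in a library, and Fech, at 2901 bases, had 1094 to 1563. Averaged over the 9 libraries, Iscu was highest at 54.0 FPKM, followed by Fech at 24.7 and Slc25a28 at 21.7. Glrx5 at 16.9 and Alas1 at 16.5 FPKM came next and had overlapping ranges over the libraries. Nfs1 at 8.12 and Slc25a37 at 7.96 FPKM also overlapped, and Abcb10 was lowest at 4.70 FPKM. The highest library exceeded the lowest by 2.75 times for Alas1, 2.66 times for Slc25a37, 2.54 times for Glrx5 and 2.11 times for Iscu. For Nfs1 that ratio was 1.27.

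**Figure D1:**
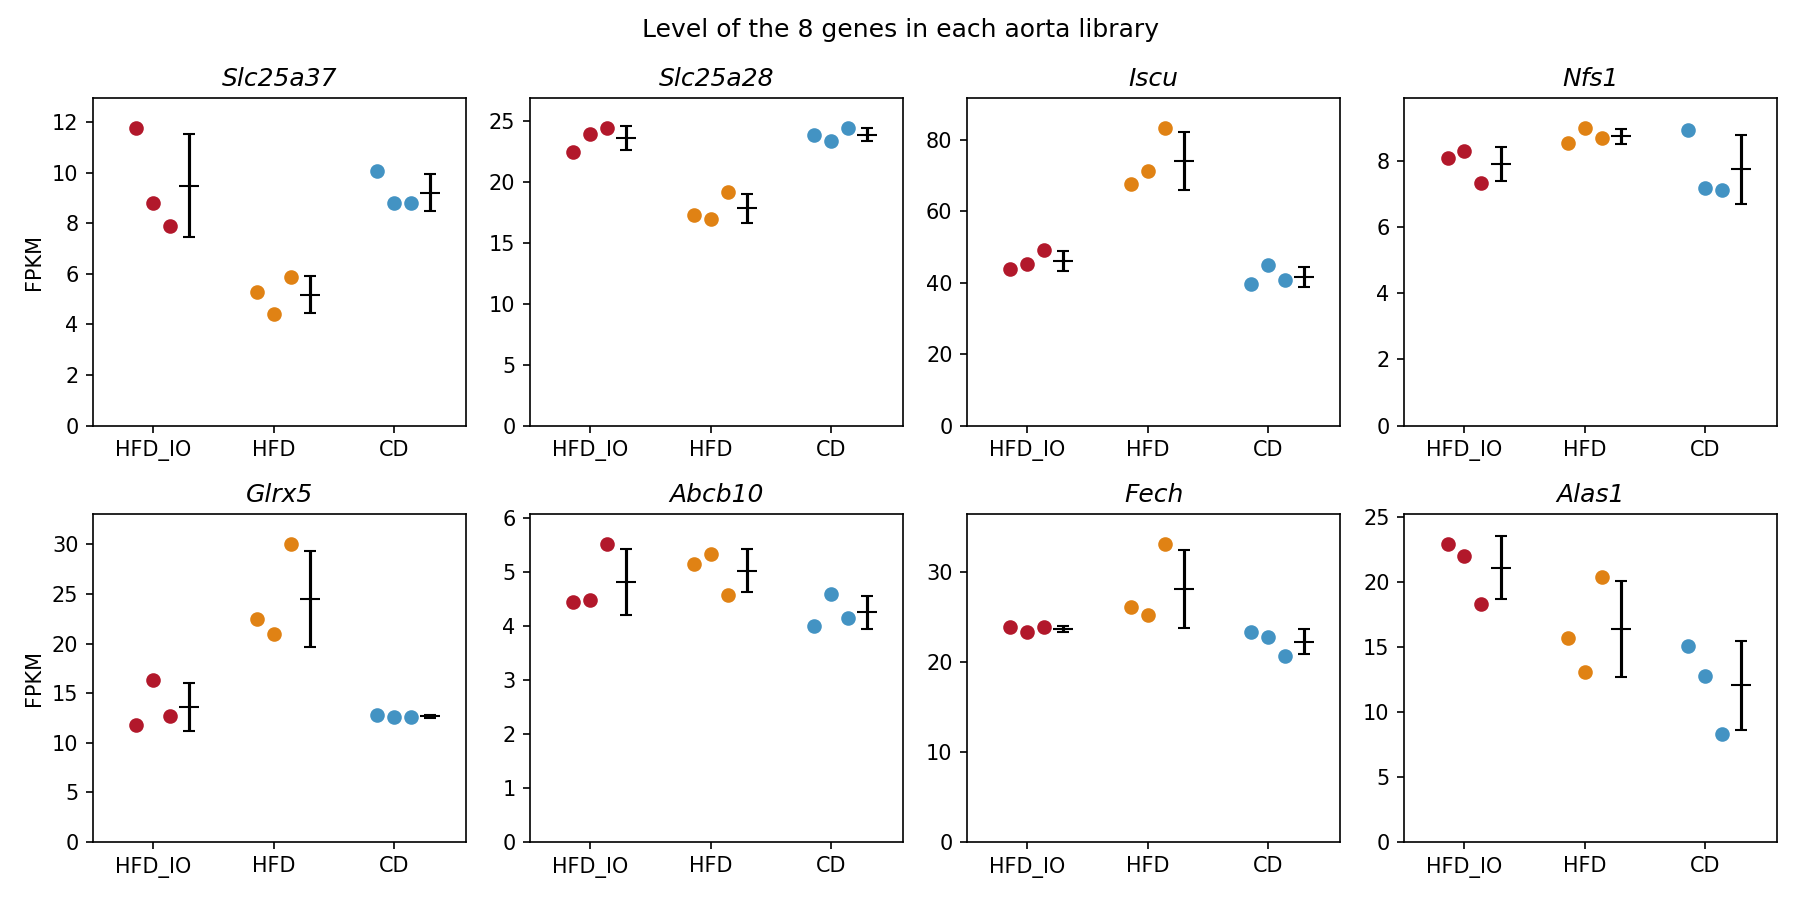
FPKM (vertical axis, from 0) of each of the 8 genes in HFD_IO, HFD and CD aortas. Points are libraries in the order of their column numbers, and the bar beside them is the mean with SD (n = 3). In Slc25a37 and Slc25a28 the 3 HFD libraries lie below the other 6, and in Iscu and Glrx5 they lie above the other 6.

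In the comparison of iron with the high fat diet against the high fat diet alone, both mitoferrin genes rose and the scaffold and transfer genes Iscu and Glrx5 fell. Thus 4 of the 8 genes passed the threshold, 2 in each direction, while of all 13883 genes 28.6% passed it, 14.1% by rising and 14.5% by falling. The groups did not overlap in 6 of the 8 genes, beside 48.5% of all genes. Under the high fat diet against chow, the mitoferrin genes fell and Iscu and Glrx5 rose, again 2 in each direction, where 39.4% of all genes passed, 21.8% by rising and 17.6% by falling. The groups did not overlap in 5 of the 8, beside 50.7% of all genes. Both comparisons use the same 3 HFD libraries, so an HFD library that is high or low moves both of them. In HFD_IO against CD only Alas1 passed the threshold, by rising, where 32.5% of all genes passed, 17.5% by rising and 15% by falling, and Alas1 alone had groups that did not overlap, beside 47% of all genes. Without CD_1 and HFD_3, the highest of their groups in erythroid and in white and brown adipocyte markers, 4, 4 and 1 of the 8 genes passed in the 3 comparisons. Of all 13883 genes 3591, 5548 and 5202 passed with that setting.

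**Figure D2:**
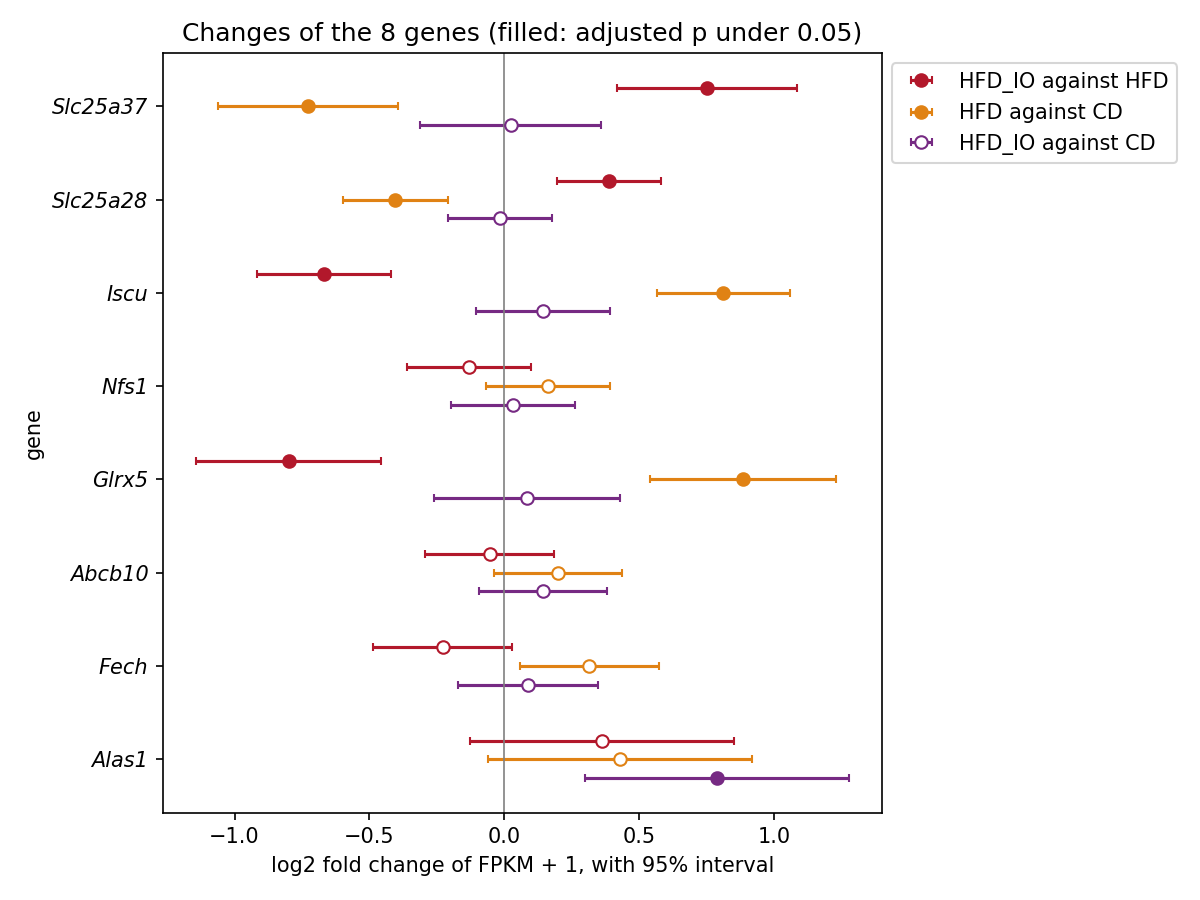
Log2 fold change of FPKM + 1 (horizontal axis) of the 8 genes in the 3 comparisons, with the 95% interval. Filled points have an adjusted p under 0.05. HFD_IO against HFD has Slc25a37 and Slc25a28 to the right of 0 and Iscu and Glrx5 to the left, and HFD_IO against CD has only Alas1 filled.

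Slc25a37 (ENSMUSG00000034248, chromosome 14, 69241848 to 69285112, minus strand, GRCm38) encodes mitoferrin 1, the form on which red cell precursors depend. Its level was 11.8, 8.81 and 7.88 FPKM in HFD_IO_1, HFD_IO_2 and HFD_IO_3, 5.27, 4.42 and 5.87 FPKM in HFD_1, HFD_2 and HFD_3, and 10.1, 8.78 and 8.78 FPKM in CD_1, CD_2 and CD_3. Every HFD library was below every library of the other groups, and the HFD_IO libraries spread on both sides of the CD libraries. The gene averaged 9.49 ± 2.04 FPKM in HFD_IO and 5.18 ± 0.727 in HFD (SD, n = 3 each), a rise of 0.75 (SE 0.15, adjusted p = 0.00754). It fell in HFD against CD, which averaged 9.21 ± 0.741 FPKM, with a change of -0.73 (SE 0.15, adjusted p = 0.00577). The HFD_IO level differed from that of CD by 0.02, with a 95% interval from -0.31 to 0.36.

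Slc25a28 (ENSMUSG00000040414, chromosome 19, 43663822 to 43674881, minus strand) encodes mitoferrin 2, which is expressed in most tissues. Its level was 22.5, 23.9 and 24.4 FPKM in the HFD_IO libraries, 17.3, 16.9 and 19.2 in the HFD libraries and 23.8, 23.3 and 24.4 in the CD libraries. The HFD libraries again stood below all others, and the other 6 lay between 22.5 and 24.4 FPKM. The mean was 23.6 ± 1.00 FPKM in HFD_IO and 17.8 ± 1.21 in HFD (SD, n = 3 each), a rise of 0.39 (SE 0.09, adjusted p = 0.0114). In HFD it fell by 0.40 relative to CD (SE 0.09, adjusted p = 0.00682), where it averaged 23.9 ± 0.544 FPKM. For HFD_IO against CD the change was -0.02, with a 95% interval from -0.21 to 0.18.

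The balance of the mitoferrins within a library was taken as log2(FPKM + 1) of Slc25a37 minus that of Slc25a28. It was -1.25 ± 0.331 in HFD_IO, -1.61 ± 0.102 in HFD and -1.29 ± 0.109 in CD (SD, n = 3 each). By the listed gene lengths Slc25a28 thus had the higher FPKM in every group. HFD_IO minus HFD was 0.36 and HFD minus CD was -0.32, each with a 2-sided exact permutation p of 0.1, the smallest that 3 against 3 allows. HFD_IO minus CD was 0.04 (exact p = 0.9). The FPKM of Slc25a37 was 0.524, 0.369 and 0.323 times that of Slc25a28 in the HFD_IO libraries, 0.305, 0.261 and 0.306 times in HFD and 0.423, 0.377 and 0.360 times in CD. HFD_IO_1 held the highest ratio of all 9 libraries, and without it HFD_IO minus HFD was 0.18 and HFD_IO minus CD was -0.15. After quantile normalization HFD_IO minus HFD was 0.26 (exact p = 0.3) and HFD minus CD was -0.16 (exact p = 0.2). The higher FPKM of Slc25a28 rests on the listed lengths, 1514 bases against 6021 for Slc25a37. In reads Slc25a37 was the higher in every library, at 445 to 1311 against 429 to 673.

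Iscu (ENSMUSG00000025825, chromosome 5, 113772748 to 113778288, plus strand), the cluster scaffold, had 43.9, 45.4 and 49.3 FPKM in the HFD_IO libraries, 67.8, 71.3 and 83.4 in HFD and 39.6, 44.9 and 40.7 in CD. All HFD libraries were above all others by more than the spread within any group. The mean was 46.2 ± 2.77 FPKM in HFD_IO and 74.2 ± 8.19 in HFD (SD, n = 3 each), and the change was -0.67 (SE 0.11, adjusted p = 0.00377). With the high fat diet alone it rose by 0.81 (SE 0.11, adjusted p = 0.00119) over the CD mean of 41.7 ± 2.78 FPKM. HFD_IO against CD gave 0.14, with an interval from -0.10 to 0.39.

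Glrx5 (ENSMUSG00000021102, chromosome 12, 105032688 to 105042906, plus strand), the cluster carrier, had 11.8, 16.3 and 12.7 FPKM in HFD_IO, 22.5, 21.0 and 30.0 in HFD and 12.8, 12.6 and 12.6 in CD. The CD libraries were close to identical, HFD_3 was the highest and HFD_IO_2 was the only HFD_IO library above all CD libraries. Glrx5 averaged 13.6 ± 2.38 FPKM in HFD_IO and 24.5 ± 4.85 in HFD (SD, n = 3 each) and fell by 0.80 (SE 0.15, adjusted p = 0.00672). In HFD it rose by 0.88 relative to CD (SE 0.15, adjusted p = 0.00294), where it averaged 12.7 ± 0.133 FPKM. The HFD_IO level differed from CD by 0.08, with an interval from -0.26 to 0.43.

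Nfs1 (ENSMUSG00000027618, chromosome 2, 156123639 to 156144186, minus strand), the sulfur donor enzyme, passed the threshold in no comparison. It had 8.09, 8.29 and 7.32 FPKM in HFD_IO, 8.53, 8.99 and 8.67 in HFD and 8.93, 7.17 and 7.10 in CD. CD_1 lay with the HFD libraries and apart from the other CD libraries. The change was -0.13 in HFD_IO against HFD (interval -0.36 to 0.10, adjusted p = 0.364) and 0.16 in HFD against CD (interval -0.07 to 0.39, adjusted p = 0.233). Without CD_1 the comparison of HFD with CD gave 0.26 with an adjusted p of 0.0342, and library weights also brought it past the threshold (0.26, adjusted p = 0.0147). Among all genes these settings called 6160 and 7787 in that comparison, against 5470 with all libraries weighted equally. Along 148 bases Nfs1 overlaps Romo1 on the opposite strand, which was at 47.9 to 57.4 FPKM in HFD_IO, 82.1 to 112 in HFD and 42.7 to 52.3 in CD. Whether reads were counted by strand is not given, so those in the overlap cannot be assigned.

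Heme synthesis was led by Alas1 (ENSMUSG00000032786, chromosome 9, 106233455 to 106248654, minus strand). It had 22.9, 22.0 and 18.4 FPKM in HFD_IO, 15.7, 13.1 and 20.4 in HFD and 15.1, 12.7 and 8.34 in CD. Every HFD_IO library was above every CD library, while HFD libraries overlapped both. Alas1 averaged 21.1 ± 2.42 FPKM in HFD_IO and 12.1 ± 3.43 in CD (SD, n = 3 each), a rise of 0.79 (SE 0.22, adjusted p = 0.0214). That call was lost without CD_3 (0.56, adjusted p = 0.0621), HFD_IO_1 (0.73, adjusted p = 0.0662) or HFD_IO_2 (0.76, adjusted p = 0.0702). It was also lost when genes with low values were kept (adjusted p = 0.0523). HFD, at 16.4 ± 3.71 FPKM, passed the threshold against neither group in the fit with equal weights: HFD_IO was higher by 0.36 (interval -0.13 to 0.85, adjusted p = 0.236), and HFD was higher than CD by 0.43 (interval -0.06 to 0.92, adjusted p = 0.145). With library weights HFD against CD passed (0.54, adjusted p = 0.0490), while it was 0.20 without CD_3, 0.27 without HFD_3 and 0.06 on the TPM scale, and HFD_IO against HFD was 0.22 without HFD_2.

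Fech (ENSMUSG00000024588, chromosome 18, 64456550 to 64489066, minus strand), the last enzyme of the pathway, had 23.9, 23.3 and 23.9 FPKM in HFD_IO, 26.1, 25.2 and 33.2 in HFD and 23.4, 22.8 and 20.7 in CD. HFD_3 was the highest, and all HFD libraries were above the other 6. The differences stayed short of the threshold, at -0.23 in HFD_IO against HFD (interval -0.49 to 0.03, adjusted p = 0.162) and 0.32 in HFD against CD (interval 0.06 to 0.57, adjusted p = 0.0542). The second passed with an FPKM minimum of 5 (adjusted p = 0.0486) and with library weights (adjusted p = 0.0201). On the TPM scale, in which every library has the same total per length, the second was -0.07, against a median of -0.30 for all genes. It was 0.12 after quantile normalization, 0.14 with the length trend removed and 0.20 without HFD_3 (adjusted p = 0.155), and HFD_IO against HFD was -0.11 without HFD_3.

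Abcb10 (ENSMUSG00000031974, chromosome 8, 123952459 to 123983122, minus strand) had 4.45, 4.49 and 5.53 FPKM in HFD_IO, 5.16, 5.35 and 4.59 in HFD and 4.00, 4.61 and 4.16 in CD. The groups overlapped in all 3 comparisons. The largest of its changes was 0.20 in HFD against CD (interval -0.04 to 0.44, adjusted p = 0.163), followed by 0.14 in HFD_IO against CD (interval -0.09 to 0.38) and -0.05 in HFD_IO against HFD (interval -0.29 to 0.18).

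Promoter windows were shown for the heme genes Alas1 and Abcb10, which share a sequence motif, and for the import gene Slc25a28, which holds none of the motifs searched and passed the threshold in both comparisons with HFD. The windows are from RefSeq on GRCm38.p6, run from 250 bases before an annotated start to 50 after it, and were found for 5 of the 8 genes. Capitals mark the motif of the transcription factor NRF1 (GCGCA, any 1 base, then GCGC), which controls many nuclear genes of mitochondria. Alas1 is at chr9:106247905-106248204, Abcb10 at chr8:123983073-123983372 and Slc25a28 at chr19:43674832-43675131, all on the minus strand.
Alas1: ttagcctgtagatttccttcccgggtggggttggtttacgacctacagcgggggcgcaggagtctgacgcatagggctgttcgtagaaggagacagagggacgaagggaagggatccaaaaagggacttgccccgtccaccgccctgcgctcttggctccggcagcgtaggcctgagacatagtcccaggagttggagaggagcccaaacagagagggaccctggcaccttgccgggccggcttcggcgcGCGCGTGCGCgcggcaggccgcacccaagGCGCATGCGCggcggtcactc
Abcb10: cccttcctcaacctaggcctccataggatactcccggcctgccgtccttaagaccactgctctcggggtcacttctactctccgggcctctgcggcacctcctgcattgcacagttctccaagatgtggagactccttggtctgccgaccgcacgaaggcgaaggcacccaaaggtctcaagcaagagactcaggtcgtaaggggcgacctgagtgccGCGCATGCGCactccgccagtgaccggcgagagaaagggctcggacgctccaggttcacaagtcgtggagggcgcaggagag
Slc25a28: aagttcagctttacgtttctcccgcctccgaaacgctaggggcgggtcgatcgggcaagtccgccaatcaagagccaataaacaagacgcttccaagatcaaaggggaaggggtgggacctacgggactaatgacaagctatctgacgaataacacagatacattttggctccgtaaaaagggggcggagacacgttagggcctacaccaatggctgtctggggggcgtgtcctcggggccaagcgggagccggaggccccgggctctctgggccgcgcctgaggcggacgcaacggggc

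Searched on both strands, that motif occurred in 4.63% of 32544 promoter windows of the same length. Alas1 held 2 copies, at its start and 29 bases after it, which also lie in the window of its other annotated start, and Abcb10 held 1 copy that begins 32 bases before its start. The antioxidant response element TGACNNNGC, bound by NRF2 and BACH1 with small MAF proteins, occurred 2 times in Nfs1 and in 12.4% of all windows. The ETS motif CCGGAAG also occurred 2 times in Nfs1, and in 8.91% of all windows. CACGTG, the E-box of clock and MiT family factors, was in 7.17% of all windows and in none of the 5 genes. None of these matches overlapped another, and a match describes the letters of the window only.

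The wider pathway was read from lists of genes in the same fit, which were chosen with earlier results of these data known. Of 19 tested genes of mitochondrial iron-sulfur assembly, among them Iscu, Nfs1 and Glrx5, 8 fell and none rose in HFD_IO against HFD, with a median of -0.37 beside -4.19e-05 for all genes. In HFD against CD 9 rose and none fell, with a median of 0.43 beside 0.06 for all genes. Of all genes 14.5% fell in the first comparison and 21.8% rose in the second. Fdx1, a ferredoxin, fell by 1.12 with iron to 6.90 ± 0.628 FPKM, against 16.4 ± 3.46 in HFD. Bola1 and Bola3, which act late in cluster transfer, fell by 0.71 and 0.64, and Lyrm4, the small partner that stabilises NFS1, fell by 0.64. With the high fat diet alone these 4 genes rose, Fdx1 by 0.72, Bola1 by 0.66, Bola3 by 0.69 and Lyrm4 by 0.75. The related gene Fdx1l was also on the list but reached at most 0.497 FPKM and was not tested.

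Genes of proteins that carry iron-sulfur clusters in mitochondria formed a further list. Of its 12 tested genes 6 fell and none rose in HFD_IO against HFD (median -0.77), and 8 rose and none fell in HFD against CD (median 0.77). Beside them, 14.5% of all genes fell in the first comparison and 21.8% rose in the second. Uqcrfs1, the Rieske protein of the respiratory chain, had 78.8 ± 9.58 FPKM in HFD_IO and 147 ± 53.0 in HFD, and fell by 0.84 (adjusted p = 0.0453). Cisd1, a protein of the outer membrane, fell by 0.94, and the complex I subunits Ndufs8 and Ndufs7 fell by 0.85 each. In HFD against CD, Uqcrfs1 rose by 1.09, Cisd1 by 1.04, Ndufs8 by 0.88 and Sdhb, of succinate dehydrogenase, also by 0.88. In HFD_IO against CD none of the 12 passed limma's adjusted threshold, none had an unadjusted p under 0.05, and voom on recovered reads called 0.

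Cytosolic iron-sulfur assembly had 11 genes, of which 1 rose and 5 fell in HFD_IO against HFD, and 7 rose and 1 fell in HFD against CD. The medians were -0.07 and 0.41, beside -4.19e-05 and 0.06 for all genes. Of all genes 14.1% rose and 14.5% fell in the first comparison, and 21.8% rose and 17.6% fell in the second. Fam96b, of the complex that delivers clusters to cytosolic and nuclear proteins, fell by 0.70 with iron, Glrx3 by 0.60, Ciao1 by 0.49 and Bola2 by 0.43. Bola2, which partners with GLRX3, rose by 0.94 in HFD against CD, and Fam96a, Glrx3 and Ciao1 rose by 0.71, 0.63 and 0.58. In HFD_IO against CD 4 rose and 1 fell: Fam96a rose by 0.91, Bola2 by 0.51 and the scaffold gene Nubp2 by 0.47, and Fam96b fell by 0.37. In that comparison 17.5% of all genes rose and 15% fell.

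Heme synthesis and its carriers held 14 tested genes, including Alas1, Abcb10 and Fech. In HFD_IO against HFD none rose and 5 fell, with a median of -0.29, where 14.1% of all genes rose and 14.5% fell. Alas2, the form of the first enzyme made by red cell precursors, fell by 1.51 to 22.2 ± 5.65 FPKM, against 68.6 ± 32.8 in HFD. Alad and Urod, enzymes of the middle of the pathway, fell by 0.94 and 0.62, and Pgrmc1, a heme-binding partner of FECH, fell by 0.54. Beside these falls, the summed level of 10 erythroid markers, the globins and Alas2 itself among them, was 2574 to 4151 FPKM in HFD_IO, 8326 to 26101 in HFD and 4678 to 12375 in CD. Of the 6 tested, 4 fell in HFD_IO against HFD, and 1 of the 10 was at 0 in HFD_IO_1. The part of blood in the falls of the heme genes was not tested.

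In HFD against CD 4 genes of the heme list rose and 1 fell, where 21.8% of all genes rose and 17.6% fell. The carrier Tmem14c rose by 0.98, Pgrmc1 by 0.74 and Urod by 0.66. Ppox, which makes the substrate of FECH, was at 5.95, 4.83 and 5.65 FPKM in HFD_IO, 6.51, 4.29 and 5.72 in HFD and 11.4, 9.35 and 11.0 in CD. It was low in both groups on the high fat diet, with a change of -0.84 in each against CD (adjusted p = 0.00215 for HFD_IO and 0.00276 for HFD). HFD_IO against CD had 2 that rose, Alas1 and Tmem14c (0.61), and 4 that fell, among them Slc25a38, a mitochondrial glycine carrier, by 0.69 and Alas2 by 1.02. Of all genes 17.5% rose and 15% fell in HFD_IO against CD.

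Of the iron regulatory genes Aco1, Ireb2 and Fbxl5, only Fbxl5, whose protein marks IRP2 for degradation when iron is ample, passed. It rose by 0.41 in HFD_IO against HFD (8.67 ± 1.20 against 6.25 ± 0.611 FPKM, adjusted p = 0.0441), a call lost when any 1 HFD library was left out and after quantile normalization. In HFD_IO against CD it rose by 0.66 (adjusted p = 0.00455). Mitochondrial housekeeping genes were a further yardstick. Of 11, none rose and 2 fell in HFD_IO against HFD (median -0.24), and 4 rose and none fell in HFD against CD (median 0.34). The falls were Timm44, of the import motor, by 0.49 and Vdac1, a channel of the outer membrane, by 0.36. The rises under the high fat diet were Vdac1 by 0.73, Tomm20 and Timm23 by 0.67 each and Vdac2 by 0.44. HFD_IO against CD had 4 rises, among them Timm23 (0.61), Vdac2 (0.48) and Tomm20 (0.48), and 1 fall, Timm44 by 0.41. Beside these counts, 14.1% of all genes rose and 14.5% fell in HFD_IO against HFD. The shares of all genes were 21.8% and 17.6% in HFD against CD, and 17.5% and 15% in HFD_IO against CD.

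**Figure D3:**
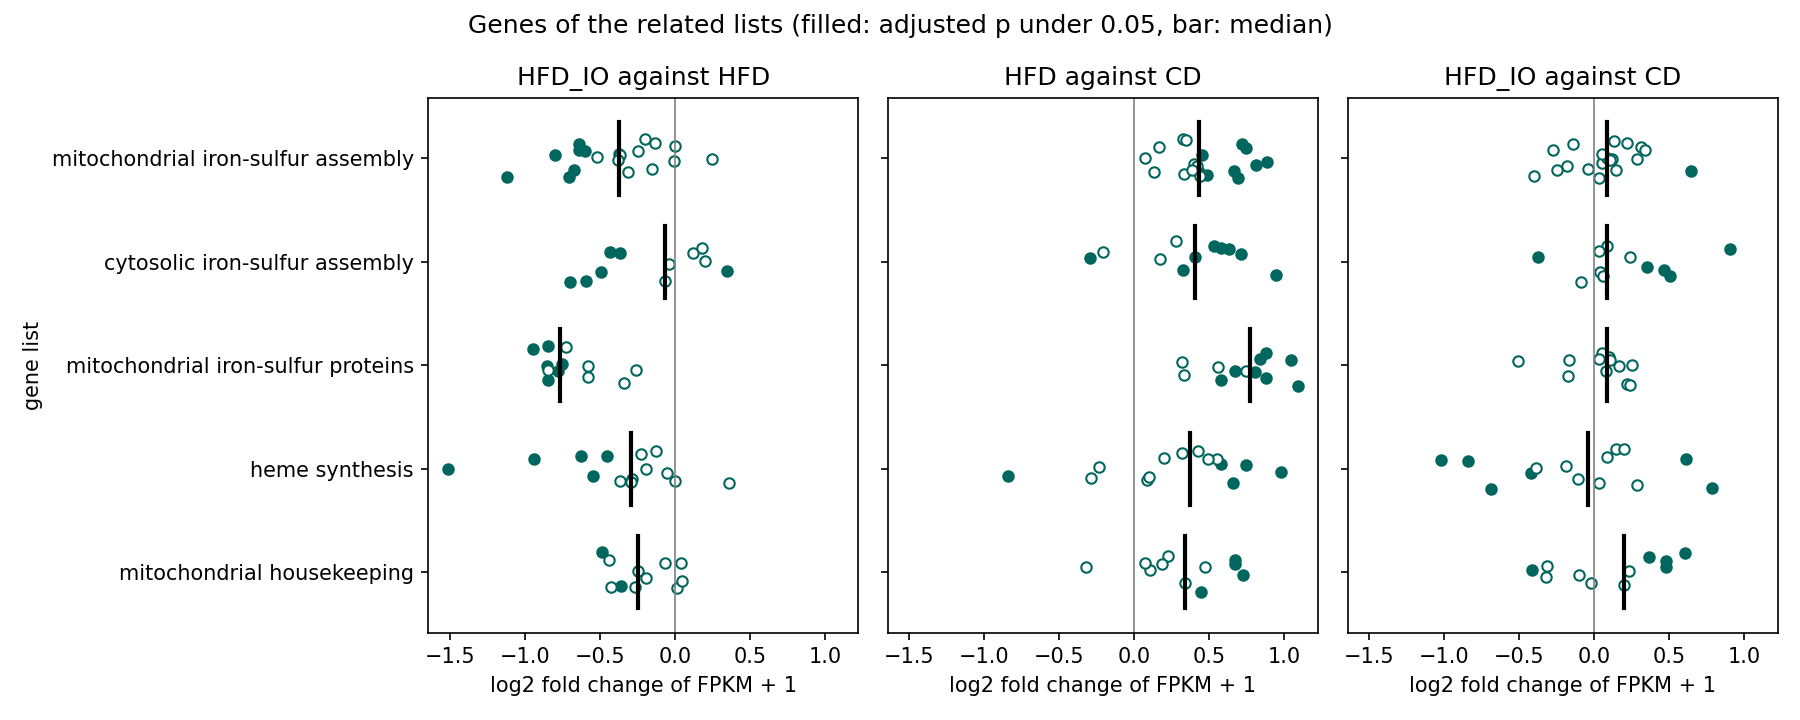
Log2 fold change of FPKM + 1 (horizontal axis) of each tested gene in 5 lists, in HFD_IO against HFD, HFD against CD and HFD_IO against CD. Filled points have an adjusted p under 0.05 and bars are medians. The medians of mitochondrial iron-sulfur assembly are -0.37, 0.43 and 0.08, and those of mitochondrial iron-sulfur proteins are -0.77, 0.77 and 0.09.

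Rescaling to TPM moved the median of all genes to 0.14 in HFD_IO against HFD, -0.30 in HFD against CD and -0.23 in HFD_IO against CD. On the TPM scale the calls of the 4 genes remained in HFD against CD and in HFD_IO against HFD. Their changes with that median taken off were not tested again. In HFD against CD they were -0.88 for Slc25a37, -0.51 for Slc25a28, 0.72 for Iscu and 0.82 for Glrx5. In HFD_IO against HFD they were 0.82, 0.41, -0.66 and -0.82. The list values that follow are on the TPM scale itself, without that median taken off. In HFD against CD 2 of 19 mitochondrial assembly genes and 3 of 12 iron-sulfur proteins rose, beside 1018 of all 13883 genes. The medians of the heme and housekeeping lists were -0.0012 and -0.04 there, above the -0.30 of all genes. In HFD_IO against HFD the cytosolic list had a median of 0.09, beside 0.14 for all genes. The mitochondrial assembly list (7 fell), the iron-sulfur proteins (6 fell) and the heme list (4 fell) stayed negative, while 1160 of all genes fell. In HFD_IO against CD the medians of mitochondrial assembly and iron-sulfur proteins were -0.14 each and that of housekeeping was -0.03. All of these were above the -0.23 of all genes.

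Markers of other cell types differed between the groups, and in bulk tissue fewer cells of a type and less RNA per cell cannot be told apart. Summed macrophage markers were 3710 to 6355 FPKM in HFD_IO, 2184 to 4072 in HFD and 367 to 501 in CD, with 10 of 12 higher in HFD_IO against HFD and 11 of 12 higher in HFD against CD. Smooth muscle markers, which define most of the wall, were present at 2546 to 4323 FPKM in HFD_IO, 7093 to 8311 in HFD and 5523 to 6176 in CD. Endothelial markers summed to 330 to 382 FPKM in HFD_IO, 169 to 305 in HFD and 489 to 714 in CD. None of these 3 lists had a gene at 0.

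Summed brown adipocyte and smooth muscle markers, like Iscu and Glrx5, were highest in the 3 HFD libraries. Summed endothelial markers, like both mitoferrin genes, were lowest in these libraries. For smooth muscle this holds for the sum only. Its mean log2(FPKM + 1) was 7.20 to 7.42 in HFD and 6.92 to 7.25 in CD, which overlap. Of its 10 markers 2 rose and 1 fell in HFD against CD, where 21.8% of all genes rose and 17.6% fell. The 10 brown adipocyte markers, from cells dense in mitochondria, summed to 213 to 295 FPKM in HFD_IO, 622 to 1581 in HFD and 257 to 475 in CD, and 5 of 8 tested rose while 2 fell in HFD against CD. White adipocyte markers summed to 307 to 1820 FPKM in HFD_IO, 1197 to 3192 in HFD and 493 to 1137 in CD, with 3 of 10 that rose in HFD against CD. None was at 0 in any library. HFD_3 was the highest of the HFD libraries in both lists and in 6 of the 8 genes, all but Nfs1 and Abcb10. With the mean of the white adipocyte markers as a covariate, Iscu and Slc25a28 kept their calls in both comparisons, and Slc25a37 and Glrx5 kept theirs in HFD against CD. In HFD_IO against HFD, Slc25a37 then had 0.70 (adjusted p = 0.0669) and Glrx5 -0.54 (adjusted p = 0.0579), and none of the 12 iron-sulfur proteins passed in limma in either comparison (6 fell in HFD_IO against HFD and 8 rose in HFD against CD without the covariate). Their medians were then -0.37 and 0.40. Over all 13883 genes the covariate left 1143 calls of 3969 in HFD_IO against HFD and 2382 of 5470 in HFD against CD. The heme list then had 0 calls in HFD_IO against HFD, and the mitochondrial assembly list had 4 that fell. Striated muscle markers were low, at 5.57 to 18.3 FPKM in HFD_IO, 8.20 to 85.1 in HFD and 6.45 to 12.2 in CD, with up to 3 of 10 at 0. The part of brown fat, macrophages, endothelium, smooth muscle and striated muscle in the changes of the 8 genes was not tested.

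**Figure D4:**
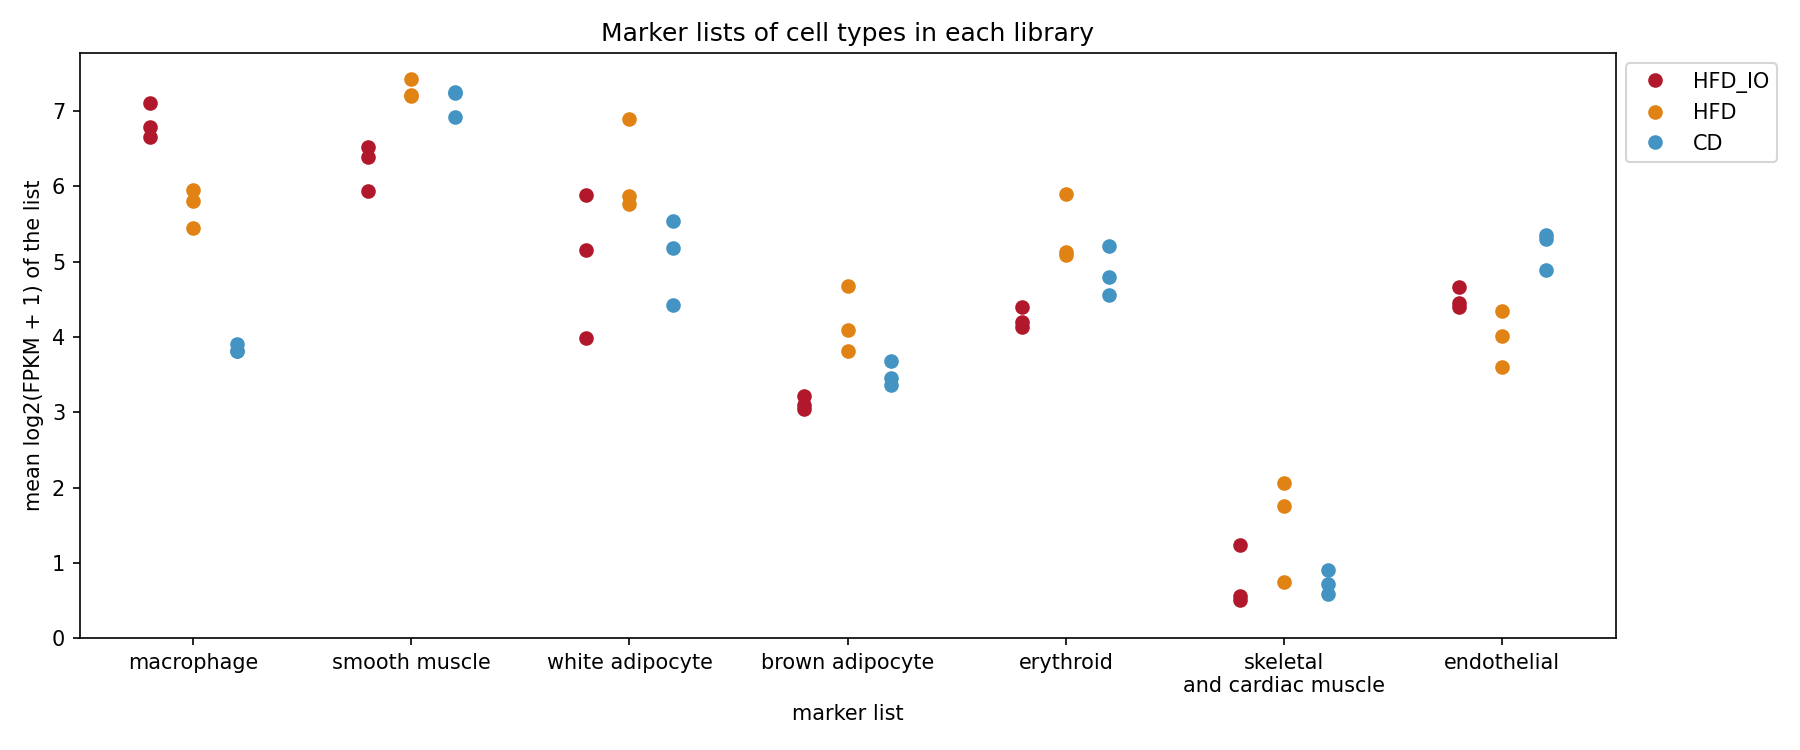
Mean log2(FPKM + 1) (vertical axis) of 7 marker lists in each library, by group. Brown adipocyte markers are highest in the 3 HFD libraries, and macrophage markers are highest in HFD_IO and lowest in CD.

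Genes most alike to 7 of the 8 over the 9 libraries were ranked by Pearson's r of log2(FPKM + 1). The ranking is a description of libraries that fall into groups and also differ in adipocyte markers. For Glrx5 the closest genes were Ndufb8, a complex I subunit (0.990), Dbi (0.987) and the mitochondrial ribosomal gene Mrpl14 (0.986). For Iscu they were Cd81, Igfbp7 and Pebp1 (0.989, 0.989 and 0.988), and for Fech the mitochondrial ribosomal gene Mrps18a (0.969) and the mitochondrial chaperone genes Trap1 and Dnaja3 (0.966 each). Slc25a28 was closest to Bmpr2, a BMP receptor (0.979), Phactr2 (0.971) and Elk4 (0.963), and Slc25a37 to AI606181, Dgke and Taok1 (0.968, 0.968 and 0.964). Alas1, at most 0.936 with Sharpin, and Abcb10, at most 0.931 with Arc, had lower values. Among the 8 themselves Glrx5 and Iscu had r = 0.940, Slc25a37 and Slc25a28 had r = 0.865, Iscu and Slc25a37 had r = -0.879, and Alas1 had at most 0.496, with Fech.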

How the data were processed

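RNA of 9 aortas was sequenced. Per the labels' protocols, total RNA (RNeasy, Qiagen) went into NEBNext libraries. The submitters' processing notes name HISAT2 and hg38, a human build, yet the identifiers are mouse: 54495 of 54532 are in GENCODE M21 (GRCm38), 98.3% of them at the same coordinates, and so are 6 of the 8 genes. Coordinates are those of the table. No source used here gives the counting tool. The authors deposited FPKM with gene lengths. Reads, recovered as whole within 0.05 of a read for 100% of values above 0 in every library, show a scaling by median-of-ratios size factors. Columns carry no sample title and were assigned to groups only. Pairs of libraries within a group differed by more than sampling noise (chi-square over degrees of freedom of at least 6.41).

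Genes with at least 1 FPKM in 3 libraries were fitted as log2(FPKM + 1) in 1 model of 3 groups with limma 3.58.1 (R 4.3.3) with a mean-variance trend, adjusted by Benjamini-Hochberg within a comparison. The adding of 1 understates changes of low genes. The calculation was tested on simulated data. The 8 genes and the lists were chosen with earlier results of these data known. Named genes are the 8, up to 4 others per pathway list with the largest absolute change past the threshold, and the 3 genes most correlated with each of the 8, without predicted genes. Some results that this rule names are not reported here. Voom on recovered reads, removal of the length trend, omission of CD_1 and HFD_3 together and the adipocyte covariate were chosen after seeing the data, and so were the context genes Apoe and Romo1. The analyses planned with count-based tools were not run, because the deposited unit is FPKM.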

Additional observations from a re-analysis of the deposited data

How the results depend on the processing

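No paired analysis was possible because the labels number the aortas 1 to 9 with no number shared between groups. The 4 calls in HFD_IO against HFD and the 4 in HFD against CD kept their direction and threshold under every scaling, pseudocount, filter, voom and omission of 1 library that was run, and only the adipocyte covariate ended any: it left 2 of the 8 genes in HFD_IO against HFD, with 1143 genes in all, and 2382 genes in HFD against CD. Sizes moved more: quantile normalization gave Iscu 0.47 in HFD against CD and -0.43 in HFD_IO against HFD, removal of the length trend gave Slc25a28 -0.71 and 0.59 in these comparisons, and TPM gave Slc25a37 -1.17, Slc25a28 -0.80, Iscu 0.43 and Glrx5 0.53 in HFD against CD. Library weights gave 7 of the 8 genes in HFD against CD, where they also gave 7787 of all 13883 genes, against 5470 without them. With no filter on low values 0 of the 8 passed in HFD_IO against CD, and with 1 library left out 0 to 1 did. Leaving out 1 library gave 2275 genes (without HFD_3) to 4944 genes in HFD_IO against HFD, where 3969 were called with all; it gave 2551 without HFD_IO_1 and 2511 without HFD_IO_2. With an FPKM minimum of 5 the calls in HFD against CD were 2580 higher and 1332 lower, and on the TPM scale 1018 higher and 4948 lower, against 3030 and 2440. TPM gave 2373 higher and 1160 lower in HFD_IO against HFD, against 1956 and 2013, and 1528 higher and 3800 lower in HFD_IO against CD, against 2427 and 2089. Changes of sign occurred only where no call had been made. On the TPM scale they were, in HFD_IO against HFD, Nfs1 0.0121 and Abcb10 0.0849; in HFD against CD, Nfs1 -0.2035, Abcb10 -0.1424 and Fech -0.066; and in HFD_IO against CD, Slc25a37 -0.2039, Iscu -0.0889, Nfs1 -0.1914, Glrx5 -0.1435, Abcb10 -0.0575 and Fech -0.1429. In HFD_IO against CD quantile normalization gave Slc25a37 -0.0261, Nfs1 -0.0138 and Fech -0.0085, and removal of the length trend gave Slc25a37 -0.0234, Nfs1 -0.0686, Glrx5 -0.0162 and Fech -0.0204. Leaving out 1 library there gave Slc25a37 -0.1277 to 0.1351, Slc25a28 -0.0395 to 0.0174, Nfs1 -0.0189 to 0.1276, Glrx5 -0.0453 to 0.1702 and a mitoferrin balance of -0.1451 to 0.1746. The causes were not tested. The planned tests with count-based tools were not run.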

Other observations

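The FPKM of Alas1 over that of Fech, the first over the last enzyme of heme synthesis, was 0.958, 0.943 and 0.768 in the HFD_IO libraries, 0.601, 0.519 and 0.615 in HFD and 0.647, 0.558 and 0.403 in CD. All HFD_IO libraries were above the other 6, and HFD and CD overlapped. The FPKM of Iscu over that of Nfs1 was 5.43, 5.47 and 6.73 in HFD_IO, 7.95, 7.94 and 9.62 in HFD and 4.44, 6.25 and 5.73 in CD, so the scaffold gene exceeded the sulfur donor gene in every library and by most in HFD. These ratios were chosen after values of the genes were seen and were not tested.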
